A study of Homo sapiens with 5 samples.

Results

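The comparison described here is that of MP2-α2/CI cells with MP2-mock cells, 2 of the 5 arrays of the series, each hybridized with RNA of 1 stably transfected population of MIAPaCa2 cells. MIAPaCa2 is an established line from a poorly differentiated pancreatic ductal adenocarcinoma (PDAC) that lacks the α2 integrin subunit and does not adhere to collagenI. MP2-α2/CI cells carried the full-length α2 coding sequence under a cytomegalovirus promoter and were kept on plates coated with 25 μg/mL collagenI. MP2-mock cells were kept under drug selection without α2, and the labels name no coating for them. The methods describe panning on collagenI-coated plates for α2 cells and name none for MP2-mock cells. Construct, panning and substrate, as described, therefore differed together between the arrays, and their contributions cannot be told apart. MP2-α2/TC cells, which carried the same α2 construct in standard culture and came from the same panning, are printed beside them. Where values are given for all 3 populations, they stand in the order mock, α2/TC, α2/CI. All 3 are described as stable populations under selection, not as clones, and were passaged at subconfluence. A population selected once is a single derivation, so that differences between derivations cannot be told apart from those of α2 either.

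Affymetrix probe sets, short groups of probes that each read 1 transcript region, were compared by their deposited values, taken as log2. All 54613 probe sets that are not controls were examined, and 29696 of them lay above background on either array. They include 24594 probe sets with 1 gene symbol, which represent 12644 genes. Background, called the floor here, was set at the value that 95 percent of 107 odorant receptor probe sets do not exceed, and stood at 2.25 on the MP2-mock and 2.27 on the MP2-α2/CI array. Lower values were raised to it, so a difference against a value at the floor is a bound. Each population had 1 array, so a difference cannot be set against a spread between replicates, and no p-value is given. The spread between several probe sets of a gene is reported in its place, and it measures probe error only.

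Integrin α2 pairs with the β1 subunit to form α2β1, a principal receptor of epithelial cells for fibrillar collagens. Bound integrins gather focal adhesion proteins and signal through kinases such as FAK, Src and ERK, which among other things act on cell cycle entry, survival and transcription. PDAC grows in a collagen-rich stroma. NF-κB transcription factors, which drive inflammatory chemokine genes, bind a short DNA motif known as the κB consensus.

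Of the gene lists examined, cytokines and NF-κB targets had the largest share of members below MP2-mock, and the promoters of several of them hold this motif. The sequences below give 1 match for each of the 11 genes at least 2-fold apart, in the list or not, whose promoter holds one. They are RefSeq promoter sequence of build GRCh38.p14, written 5′ to 3′ on the strand of the gene, with the match to the κB consensus in capitals. Matches were searched on both strands between 250 bases before and 50 bases after the start site. Those of CXCL2, CXCL3, CXCL5 and TNFRSF9 also match on the opposite strand 1 base further on, that of PTX3 likewise, and those of TNFAIP3, CHI3L2 and BST2 match on the opposite strand only.
CXCL2, chr4:74099254-74099283, minus strand: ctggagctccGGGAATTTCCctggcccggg
CXCL3, chr4:74038749-74038778, minus strand: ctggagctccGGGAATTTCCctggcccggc
CXCL5, chr4:73998749-73998778, minus strand: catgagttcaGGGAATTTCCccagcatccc
TNFAIP3, chr6:137867194-137867223, plus strand: aaagtcccgtGGAAATCCCCgggcctacaa
TNFRSF9, chr1:7940894-7940923, minus strand: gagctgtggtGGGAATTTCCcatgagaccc
CHI3L2, chr1:111227614-111227643, plus strand: agtctgccagGGGAAGTCCCtggacttctt
BST2, chr19:17405837-17405866, minus strand: gacttaagatGGAGTGTCCCaggcagccac
PDZK1IP1, chr1:47190236-47190265, minus strand: aggtgaggctGGGACTCTCCcacatctgct
PTX3, chr3:157436743-157436772, plus strand: accaaattcaGGGGAACTCCcgttaccgca
BBX, chr3:107522712-107522741, plus strand: ggtgcagacaGGGGTTTTCCcctttacccc
GREB1L, chr18:21242097-21242126, plus strand: gagggggcgcGGGGGTCCCCgctgcggagg

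The first 8 genes read lower and PTX3, BBX and GREB1L read higher in MP2-α2/CI cells. Of these 11 genes, CXCL2, CXCL3, CXCL5 and TNFAIP3 belong to the list. A match was found in 5.72% of 27305 promoters of this length, in 6.86% of the 10248 promoters of measured genes, in 3 of the 39 promoters of genes at least 2-fold higher (7.69%) and in 8 of the 47 promoters of genes at least 2-fold lower (17.0%). In the list of cytokines and NF-κB targets, which was drawn up around this factor, 8 of 15 promoters held a match. Among its genes at least 2-fold lower, 4 of 5 promoters did. These 4 are also among the 8 genes behind the 17.0%, so these shares are not independent. The difference between the shares was not tested. A match describes the letters of the promoter and not binding.

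The arrays were alike for most probe sets. The median difference was 0, the SD of the differences was 0.207 on the log2 scale, and 76.4% of probe sets lay within 1.1-fold. Values were identical within 1e-06 for 12651 probe sets (42.6%), so a difference of 0 often means the same deposited number. The α2/TC and α2/CI arrays also share deposited numbers at some probe sets. Equal values on them cannot be read as independent agreement. Relative to MP2-mock cells, 146 probe sets (0.492%) were at least 2-fold apart in MP2-α2/CI cells, of which 70 (0.236%) read higher and 76 (0.256%) lower. At 1.5-fold there were 525 (1.77%), 301 higher (1.01%) and 224 lower (0.754%), and at 3-fold 51 (0.172%), 21 higher (0.0707%) and 30 lower (0.101%). At 4-fold these counts were 11 and 21, and at 8-fold 3 and 8. The higher probe sets had a median value of 5.73 in MP2-mock and 7.56 in MP2-α2/CI cells, and the lower ones of 6.64 and 5.09. Counted by gene, 46 genes (0.364%) were higher and 55 (0.435%) lower by at least 1 probe set, and none was both. By the brightest probe set of each gene, 113 genes (0.894%) were at least 1.5-fold higher and 117 (0.925%) at least 1.5-fold lower. The share of probe sets 2-fold apart was 0.300% at mean values of 2 to 4, where 69.3% of values were identical, 0.973% at 4 to 6, 0.645% at 6 to 8, 0.499% at 8 to 10, 0.263% at 10 to 12 and 0.0645% from 12 upwards. In MP2-α2/TC over MP2-mock, which uses the same control array, 64 (0.214%) were higher and 74 (0.248%) lower.

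**Figure D1:**
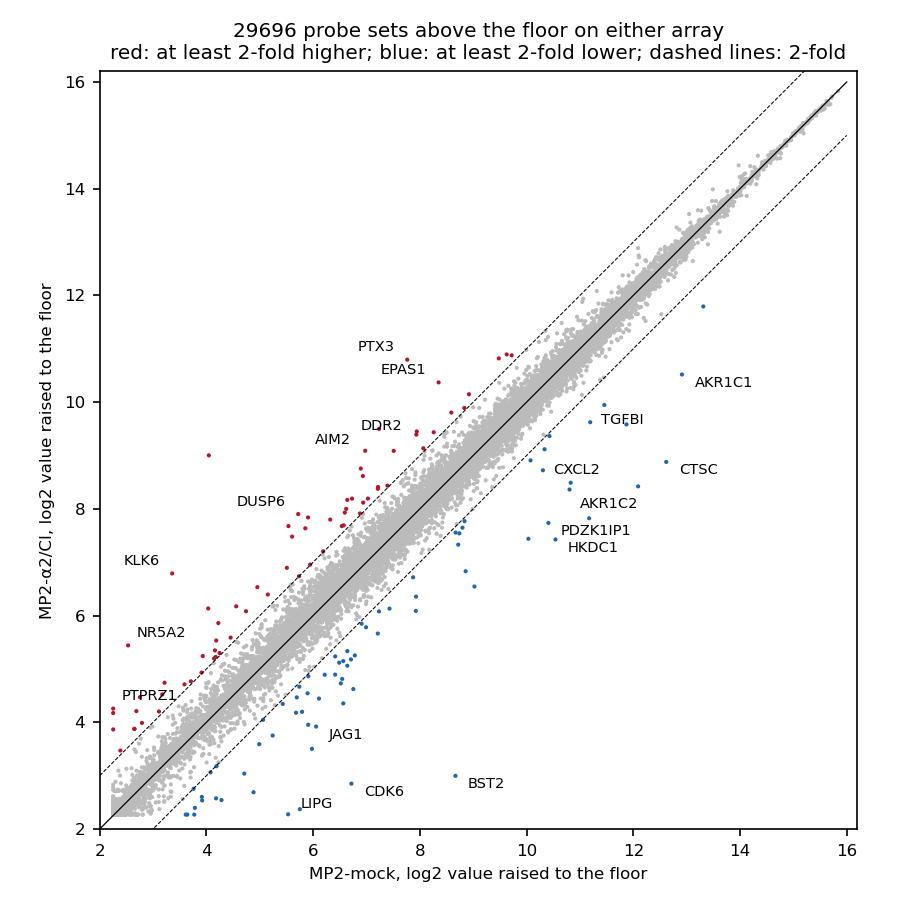
Log2 values of 29696 probe sets in MP2-mock (horizontal) and MP2-α2/CI cells (vertical), 1 array each, with values below the floor raised to it. Red points lie at least 2-fold above and blue points at least 2-fold below the line of equality, 70 and 76 probe sets. Most points hug that line, and the furthest below it is BST2.

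The check of the label by the introduced gene could not be made. Both ITGA2 probe sets read 2.24, the minimum of the arrays, in all 3 populations. The paper's discussion states that these probes target untranslated sequence absent from the α2 construct, so they check nothing. The partner subunit ITGB1 had 4 of 7 probe sets above the floor, with differences between -0.09 and 0.04, and its brightest probe set read 13.57 in mock cells against 13.61 in both α2 populations. Of the other collagen-binding integrins, ITGA1 and ITGA11 lay at the floor. ITGA10 read 2.26 on every array, just over the floor in MP2-mock and at the floor in MP2-α2/CI cells. Laminin-binding ITGA3 read 9.03 in mock, 8.92 in α2/TC and 8.86 in α2/CI cells. None of 14 measured integrin subunits and none of 21 measured focal adhesion proteins was 2-fold apart. Both lists had a median difference of 0, which falls on genes with the same deposited number on both arrays. Epithelial keratins KRT8 and KRT18 read 14.18 and 15.18 in MP2-mock cells and the intermediate filament VIM 15.54, while EPCAM, CDH1 and KRT7 lay at the floor. Of the markers of other cell types on the array, all 3 acinar and all 4 endocrine ones lay at the floor on both arrays, as did 4 of 5 blood markers, PTPRC, CD3E and HBB among them, and VWF and KDR among 4 endothelial ones. The exceptions among these 4 kinds were CD14, at 3.36 on both arrays, PECAM1, at 2.49 on both, and CDH5, at 2.59 in mock and 2.78 in α2/CI cells. Of 7 fibroblast markers, 3 lay above the floor, further than these exceptions. COL1A2 read 11.97 in mock and 12.01 in α2/CI cells, COL1A1 read 7.19 and 7.18, and ACTA2 read 6.997 and 7.126. COL3A1, DCN, LUM and PDGFRB lay at the floor.

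Added controls differed slightly between the arrays. All 24 probe sets for poly-A transcripts, bacterial RNAs mixed into the sample before labelling, read higher in MP2-α2/CI cells, by 0.11 to 0.52. All 18 probe sets for hybridization controls read lower, by -0.04 to -0.21. Each of the 3 GAPDH probe sets held the same deposited number on both arrays. The part of these shifts in small differences between the arrays was not tested. The list medians of 0.19 and 0.30 given further on are no larger than the median difference of the poly-A controls, 0.35.

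DDR2, a receptor tyrosine kinase that binds fibrillar collagen without an integrin, read higher in MP2-α2/CI cells at each of its 4 probe sets. The one with the largest difference read 7.51 in mock, 8.89 in α2/TC and 9.09 in α2/CI cells, a 2.98-fold difference, and the other 3 differed by 0.80, 1.34 and 1.51 on the log2 scale. It was the only one of 7 measured non-integrin collagen receptors to stand 2-fold apart, and its relative DDR1 was not among these 7. The proteoglycan SDC4, which acts with integrins at adhesions, differed by -0.55. Among 18 measured collagens, laminins and other matrix proteins, TGFBI, a secreted collagen-binding protein, read 11.19 in mock, 9.52 in α2/TC and 9.62 in α2/CI cells. COL5A2, a chain of collagenV, stood on the other side with 10.66 and 11.48, a difference of 0.83. No other matrix gene of the list reached 1.5-fold, and none of the 12 measured metalloproteinases and inhibitors did.

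DUSP6 and NR5A2 had the largest increases seen by several probe sets. DUSP6, the phosphatase that inactivates ERK and is itself induced by ERK, read 5.72 in mock, 7.34 in α2/TC and 7.90 in α2/CI cells. Its 3 probe sets differed by 1.87, 1.93 and 2.18, with an SD of 0.16. NR5A2, a nuclear receptor active in pancreatic acinar and liver cells, read 7.24, 9.13 and 9.50 at its brightest probe set, and its 4 probe sets differed by 1.86 to 2.91. The other 19 measured nuclear receptors stayed within 2-fold, with PPARG at 0.42.

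Feedback and output genes of the ERK pathway, DUSP6 among them, lay mostly above 0, many by little. Of 19 measured genes, 15 lay above 0 and 3 below it, with a median of 0.19. Over all 12644 genes the median was 0, and 4225 lay above 0 and 3791 below. Within 1.1-fold lay 6 of the 19 and 9274 of all genes. DUSP6 was the only member at least 2-fold higher (0.269% of all genes by the brightest probe set) and IER3, an early response gene, the only one at least 2-fold lower (0.395%). ETV1, a transcription factor downstream of ERK, read 5.47 in mock, 5.86 in α2/TC and 6.35 in α2/CI cells. The feedback inhibitor SPRY1 read 9.99, 10.34 and 10.60, and DUSP5, a nuclear ERK phosphatase, read 8.34, 8.78 and 8.87. In each of these 3 genes the value was lowest in mock and highest in α2/CI cells. SPRY2 and EGR1 differed by 0.38 and 0.41, MYC by 0, and FOSL1, the AP-1 subunit FRA1, by -0.70. With the mean over each gene's probe sets in place of the brightest probe set the median was 0.09.

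Target genes of p53 also lay mostly above MP2-mock. Of 12 measured genes 10 lay above 0, against 4225 of all 12644 genes. The median of the list was 0.30 in MP2-α2/CI and 0.09 in MP2-α2/TC cells. GDF15, a secreted stress cytokine, was the only one at least 2-fold higher, which it was no longer after centring (0.98), with 5.74 in mock, 7.10 in α2/TC and 6.74 in α2/CI cells. SESN1, an antioxidant stress protein, read 7.31, 7.64 and 7.88. ZMAT3, an RNA-binding protein, read 8.17, 8.48 and 8.74, and CDKN1A, the p21 inhibitor of cyclin-dependent kinases, read 7.44, 8.14 and 7.95. MDM2, the ligase that degrades p53, differed by 0.34, RRM2B by 0.42 and FAS by 0.25. BAX and PLK3 lay below MP2-mock, by -0.18 and -0.10. Without probe sets that can read several transcripts the median was 0.04, so most of the lean rests on those probe sets.

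Cell cycle genes differed at 1 kinase. CDK6, which with D-type cyclins drives exit from G1, had 3 of 7 probe sets above the floor. The one with the largest difference read 6.72 in mock, 4.06 in α2/TC and 2.85 in α2/CI cells, a 14.6-fold difference, while the other 2 differed by -1.60 and at least -1.34. The SD over these probe sets was 1.39, the direction being the same at each. The inhibitors CDKN1A and CDKN1B stood on the other side, by 0.51 and 0.43. Replication and mitosis genes showed little, with 0 of 25 at least 2-fold apart and a median of -0.05, and E2F1, the activator of S phase genes, differed by -0.52.

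Cytokines and NF-κB targets had a median of -0.26 in MP2-α2/CI and -0.32 in MP2-α2/TC cells, the lowest of the lists for MP2-α2/CI. Of 17 measured genes 5 were at least 2-fold lower by their brightest probe set and 6 by any probe set. Over all genes the shares were 0.395% and 0.435%. In the list 14 genes lay below 0 and 1 above it, against 3791 and 4225 of all 12644 genes. The neutrophil-attracting chemokine CXCL2 read 10.31 in mock, 8.15 in α2/TC and 8.72 in α2/CI cells. CXCL3 read 5.69, 4.32 and 4.47, and CXCL1 read 12.23, 11.38 and 11.52. CXCL8, the interleukin 8 gene, differed by 0.03, so the chemokines did not all read lower. IL1A, an inflammatory cytokine, read 3.64 in MP2-mock and lay at the floor in MP2-α2/CI cells, at least 2.59-fold lower, while its other probe set read 2.36 on each array. CXCL5 read 10.07, 8.73 and 8.91 at one probe set and 10.88, 9.95 and 10.24 at its brightest, which was not 2-fold apart, and its last probe set lay close to the floor. RELB, the subunit of non-canonical NF-κB, read 6.71, 4.47 and 5.18, while NFKB1, RELA and REL differed by -0.09, -0.15 and -0.03. The feedback inhibitor TNFAIP3 was 2.31-fold and 2.83-fold lower at its 2 probe sets, and NFKBIA by -0.21. Without probe sets that can read several transcripts the median of this list was -0.06, no longer the lowest, since cholesterol synthesis stood at -0.11. With no floor it was -0.13. The differences of CXCL2, CXCL5, TNFAIP3 and IL1A rest on such probe sets. Further immune genes outside the list, named after their values were seen, were TNFRSF9 (5.24, 3.75 and 3.75) and CD83 (5.43, 4.31 and 4.35), both surface proteins of activated immune cells.

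Interferon-related genes stood on both sides of MP2-mock. BST2, the antiviral tetherin, differed by -5.67, the largest difference of any gene, by the only probe set above the floor. It was the only one of 19 measured interferon-stimulated genes to stand 2-fold apart, and the median of the list was 0. OASL and HERC5, interferon-induced genes named after their values were seen, read 4.18 and 5.74 in MP2-mock against 2.58 and 4.67 in MP2-α2/CI cells. By contrast AIM2, a sensor of cytosolic DNA, read 6.98 in mock, 8.38 in α2/TC and 9.09 in α2/CI cells, 4.33-fold higher. IFI16, a related DNA sensor named after its values were seen, read 8.07, 8.47 and 9.14, and its 3 probe sets differed by 0.95 to 1.07. The death ligand TNFSF10 (TRAIL) read 4.03, 5.33 and 6.13 at its most different probe set, and all 3 of its probe sets were at least 2-fold higher. Both IL1R2, a decoy receptor for interleukin 1 that differed by 1.35 and was named after its values were seen, and PTX3, a pentraxin of innate immunity and of hyaluronan matrix, were higher. PTX3 read 7.76, 10.38 and 10.80 and, with the hyaluronan synthase HAS3 (6.94, 8.41 and 8.12), it was one of 2 of 6 measured hyaluronan genes at least 2-fold higher. The second of 2 probe sets of HAS3 held the same deposited number, 4.51, on each array.

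**Figure D2:**
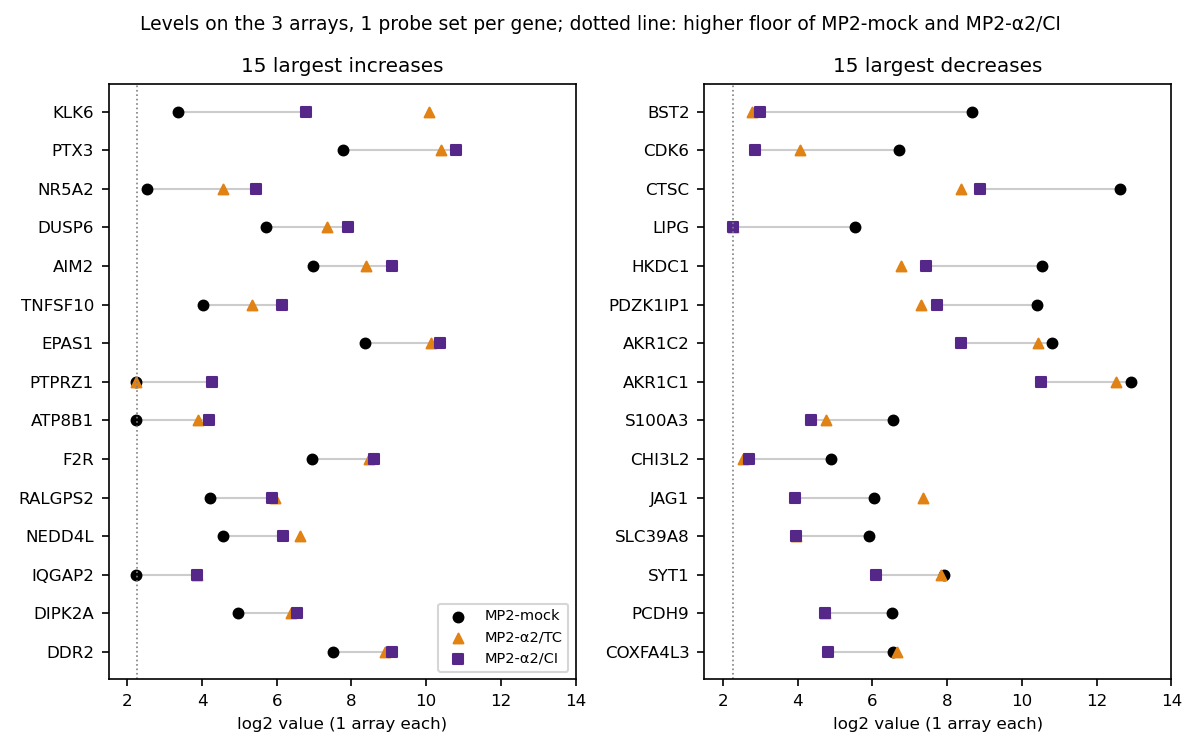
Log2 values on the mock (black circles), α2/TC (orange triangles) and α2/CI (purple squares) arrays for the 15 genes furthest above and the 15 furthest below MP2-mock in MP2-α2/CI cells, each at its most different probe set. The 2 α2 arrays lie near each other for most genes, while KLK6 and JAG1 are highest in MP2-α2/TC cells and AKR1C1, AKR1C2, SYT1 and COXFA4L3 read lower in α2/CI cells than on both other arrays. For LIPG and IQGAP2 the α2 arrays hold the same deposited number.

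Kallikreins, secreted serine proteases, differed at KLK6. It read 3.36 in mock, 10.08 in α2/TC and 6.79 in α2/CI cells, 10.8-fold higher than MP2-mock. KLK5 read 2.41, 4.90 and 2.44 and KLK7 read 2.42, 4.08 and 2.54, so that neither stood apart from MP2-mock on collagenI. By RT-PCR the paper reports KLK5, KLK6 and KLK7 as raised in MP2-α2/TC cells, and more so in MP2-α2/CI cells. On these arrays each of these genes read lower in MP2-α2/CI than in MP2-α2/TC cells. The cause of this contrast was not tested. The lysosomal protease CTSC, which activates granule serine proteases, read 12.62, 8.37 and 8.88, and its 4 probe sets differed by -3.35 to -3.74 with an SD of 0.20. It was the only one of 12 measured lysosomal proteases at least 2-fold apart. PLAU, the urokinase plasminogen activator, differed by -0.64 and -1.07 at its 2 probe sets.

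HKDC1, a hexokinase of the first step of glucose use, read 10.54 in mock, 6.78 in α2/TC and 7.43 in α2/CI cells, and all 4 of its probe sets were at least 2-fold lower. ALDOC, a glycolytic aldolase, differed by -1.01 near the floor, and the median of 18 measured glycolysis genes was -0.03. LIPG, the endothelial lipase, read 5.53 in mock cells against 2.28, the same deposited number, in both α2 populations. The zinc and manganese importer SLC39A8 differed by -1.95 and -1.53 at 2 of 4 probe sets, and PDZK1IP1, a small membrane protein, by -2.67 and -2.59 at both of its probe sets. Cholesterol synthesis genes had a median of -0.11, with 0 of 16 at least 2-fold apart, and unfolded protein response genes of -0.01, with 0 of 17.

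AKR1C1 and AKR1C2, aldo-keto reductases that metabolize steroids and reactive aldehydes, were lower in MP2-α2/CI cells and near MP2-mock in MP2-α2/TC cells. AKR1C1 read 12.91 in mock, 12.52 in α2/TC and 10.52 in α2/CI cells, 5.25-fold lower, and AKR1C2 read 10.81, 10.44 and 8.36. The genes are near-identical in sequence and all 4 of these probe sets are of the kind that can read several transcripts, so which of the genes differed is uncertain. They were counted in a list of targets of NRF2, a transcription factor of the antioxidant response, of which the other 13 measured members stayed within 2-fold. NQO1 differed by 0, GCLM by 0.03, TXNRD1 by -0.05 and HMOX1 by -0.51.

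Other genes showed the same order, with MP2-α2/CI cells apart from both other arrays. SYT1, a calcium sensor of vesicle fusion, read 7.93 in mock, 7.83 in α2/TC and 6.09 in α2/CI cells, and its second probe set 6.22, 6.58 and 4.89. The calcium-binding protein CALB2, named after its values were seen, read 13.31, 13.24 and 11.79 at the bright end of the scale. COXFA4L3, a mitochondrial protein related to a subunit of cytochrome c oxidase, read 6.55, 6.65 and 4.81, and the growth factor TGFB3 read 6.57, 6.14 and 5.15. PTPRZ1, a receptor tyrosine phosphatase, was the counterpart among higher genes: it lay at the floor in MP2-mock and MP2-α2/TC cells and read 4.26 in MP2-α2/CI cells, at least 4.01-fold higher than MP2-mock. Of the 76 lower probe sets, MP2-α2/TC and MP2-α2/CI differed from each other by at least 2-fold at 18, and of the 70 higher ones at 2. These comparisons share the MP2-mock array, and the difference between the α2 arrays has no replicate either.

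The Notch ligand JAG1 lay on opposite sides of MP2-mock on the α2 arrays. One probe set read 6.75 in mock, 8.13 in α2/TC and 4.62 in α2/CI cells and another 6.06, 7.37 and 3.92. The remaining probe set above the floor on either array read 2.30 in mock cells, just over the floor, and lay at the floor in α2/CI cells, so it could show no decrease. In α2/TC cells it read 3.78. HES4, a Notch-induced repressor, read 5.06, 4.83 and 4.05, while HES1 read 6.94, 7.12 and 6.91, and the other 16 of 18 measured Notch genes stayed within 2-fold. KANK4, of a family of scaffold proteins linked to adhesions, read 6.64, 7.79 and 5.34.

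PTPN3, a cytoplasmic tyrosine phosphatase, read 8.59 in mock, 9.72 in α2/TC and 9.81 in α2/CI cells, and both of its probe sets were at least 2-fold higher. The receptor tyrosine phosphatases PTPRK (3.59, 5.28 and 4.71) and PTPRG (4.25, 5.02 and 5.30), named after their values were seen, were also higher, PTPRG at 1 of 3 probe sets. RASAL2, a Ras GTPase-activating protein, differed by 1.18 to 1.34 at all 4 of its probe sets with an SD of 0.08, the closest agreement of any gene with 4 probe sets 2-fold apart. RALGPS2, an exchange factor for Ral, read 4.22, 5.95 and 5.86 with 2 of 4 probe sets 2-fold higher, and IQGAP2, a scaffold that binds Cdc42 and Rac, lay at the floor in mock cells against 3.87 in both α2 populations.

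Adhesion and membrane genes of other kinds stood on both sides. CLDN11, a tight junction claudin, read 9.63, 10.45 and 10.89, and it was the only one of 11 measured tight junction genes at least 2-fold apart. The cadherin CDH10 read 5.51, 7.11 and 6.90, while the protocadherins PCDH9 and PCDH1 differed by -1.79 and -1.39, PCDH9 at 1 of 3 probe sets. F2R, the thrombin receptor PAR1, read 6.93, 8.46 and 8.62 at 1 of 2 probe sets. The other held the same deposited number, 4.99, on each array. NEDD4L, a ubiquitin ligase for membrane proteins, read 4.56, 6.62 and 6.17 with 3 of 5 probe sets at least 2-fold higher. The unconventional myosin MYO10, which extends filopodia and was named after its values were seen, read 6.57, 7.34 and 7.69, and its 5 probe sets differed by 0.60 to 1.12. The transcription factor FOXQ1, linked to epithelial plasticity, read 8.80, 5.43 and 7.65, so that it lay furthest below MP2-mock in MP2-α2/TC cells. KLF4, an epithelial transcription factor, differed by -0.55 and -1.16 at its 2 probe sets. EPAS1, the hypoxia-inducible factor HIF-2α, read 8.35, 10.12 and 10.37 at one probe set. Its other probe set above the floor held the same deposited number, 3.53, on each array. The remaining 11 of 12 measured hypoxia genes stayed within 2-fold.

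The largest increase of all belonged to a probe set annotated with several genes, which is therefore not named. It read 4.05 in mock and 8.79 in α2/TC cells, and in α2/CI cells it lay above mock by 4.96. A second probe set with the same annotation differed by 1.72. In all, 7 probe sets at least 2-fold higher and 5 at least 2-fold lower had several symbols or none.

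**Figure D3:**
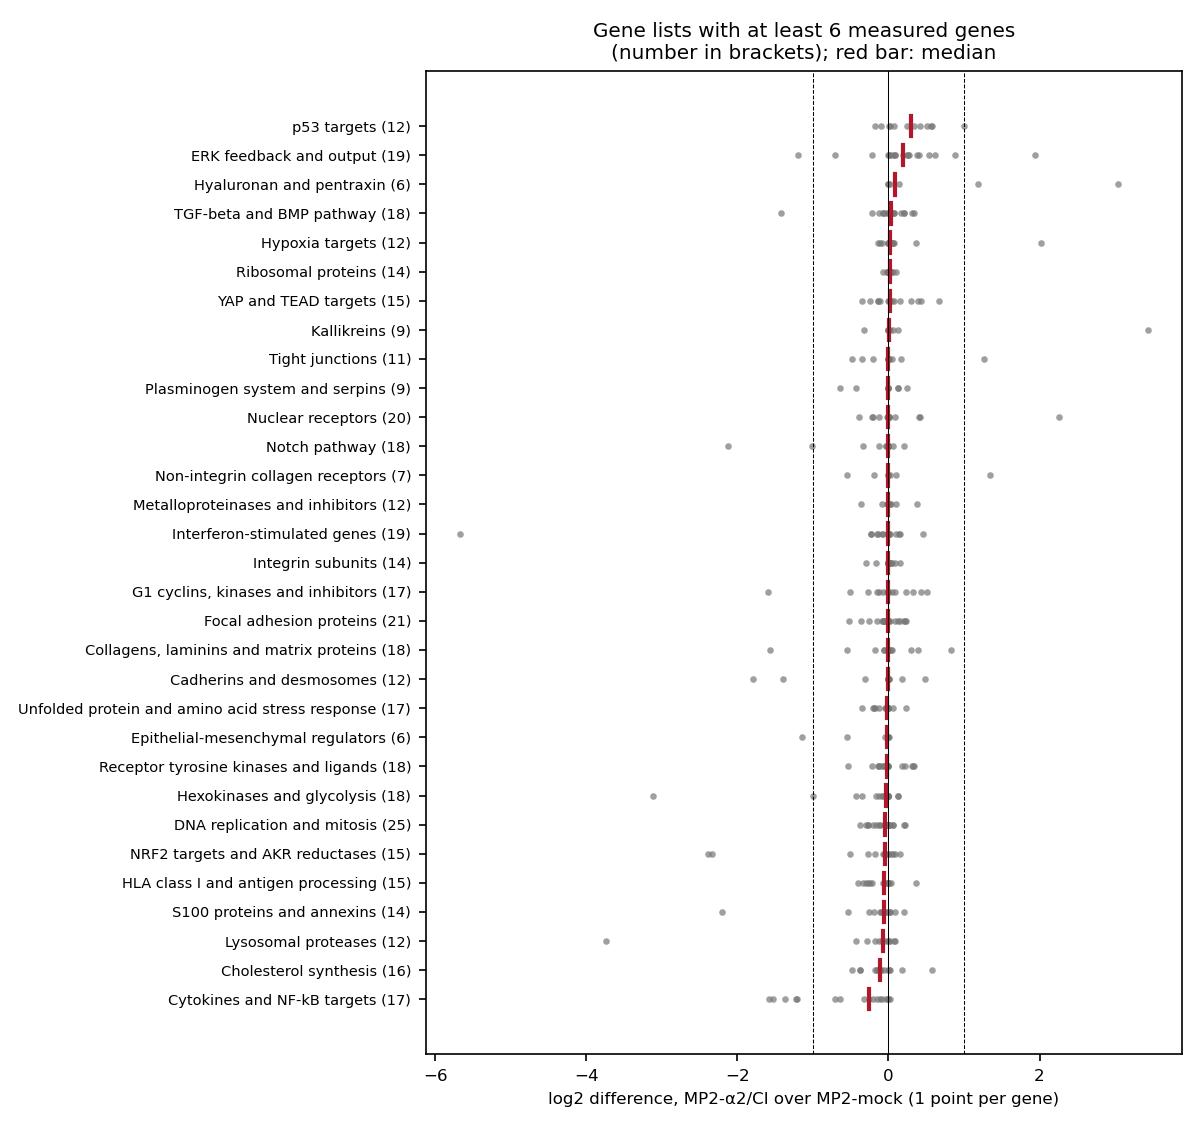
Log2 differences of MP2-α2/CI over MP2-mock for each gene of the lists with at least 6 measured genes, 1 grey point per gene at its brightest probe set, with the list median as a red bar and dashed lines at 2-fold. In this setting medians run from -0.26 for cytokines and NF-κB targets to 0.30 for p53 targets, and most lists have no more than 1 or 2 genes outside the dashed lines.

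Of the 101 genes with a probe set at least 2-fold apart, 41 had only 1 probe set above the floor and cannot be checked in this way. Of the 60 with several, 20 had at least 2 probe sets 2-fold apart in the same direction, 9 higher and 11 lower, and in 14 every probe set above the floor was. Another measure, all probe sets at least 1.1-fold in the same direction, held for 34. No gene had a probe set 1.1-fold or more in the other direction, but in 12 only 1 of several probe sets differed by that much. The SD over the probe sets of a gene had a median of 0.469 among these 60 genes and of 0.0785 among all 6490 genes with several probe sets. The first group was chosen for a large difference at 1 probe set, which widens its SD by itself. ATP8B1, a phospholipid flippase, had probe sets that disagreed: one lay at the floor in MP2-mock and read 3.90 and 4.18 on the α2 arrays, while its brighter probe set differed by -0.09.

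**Figure D4:**
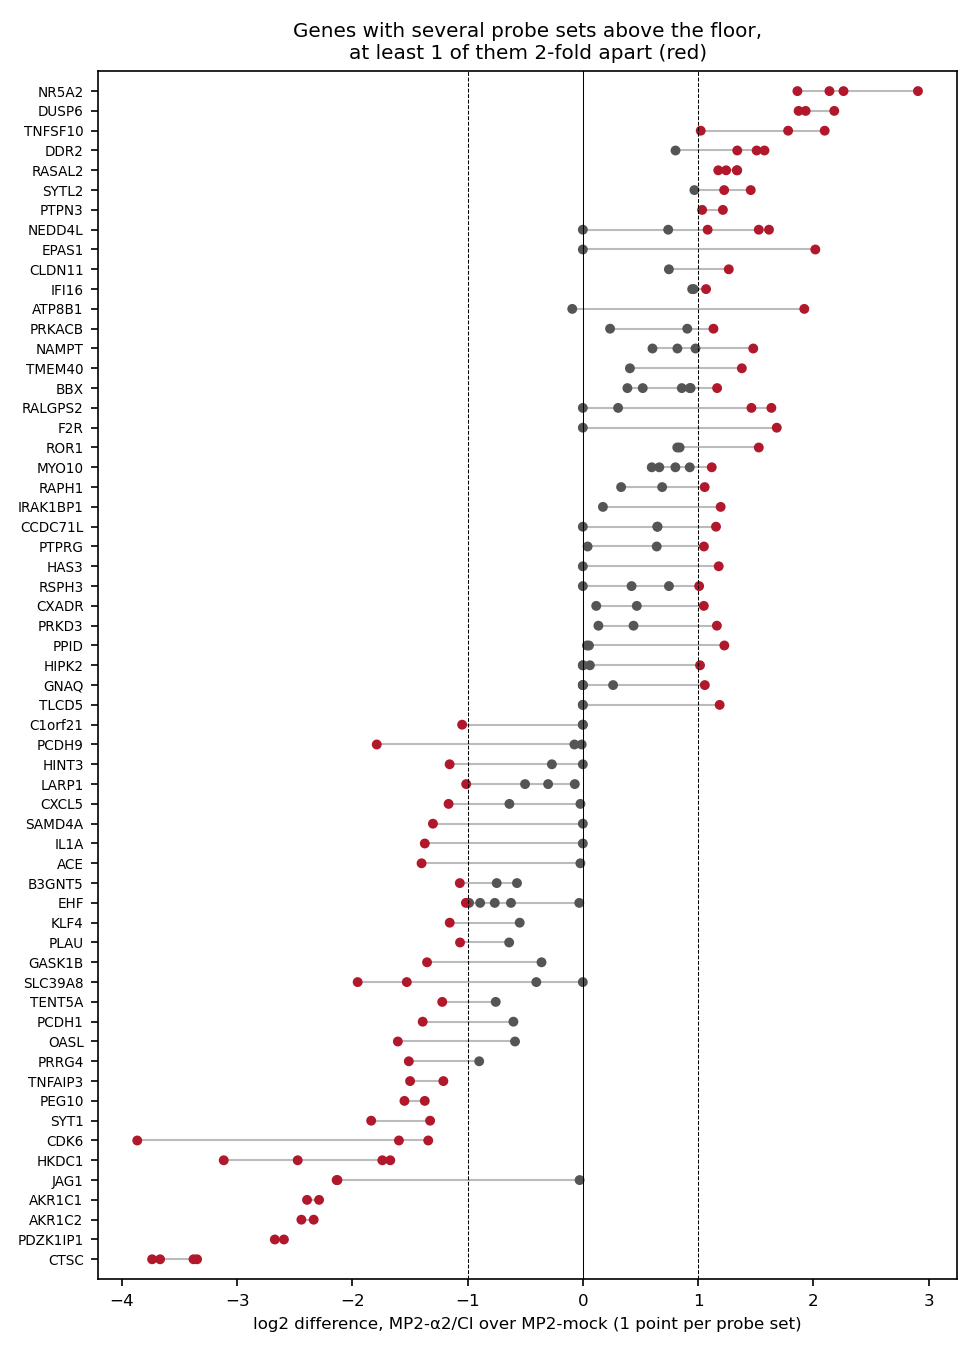
Log2 differences of MP2-α2/CI over MP2-mock for every probe set above the floor of the 60 genes with several such probe sets and at least 1 of them 2-fold apart (red, others grey). The probe sets of CTSC, AKR1C1, AKR1C2, PDZK1IP1, RASAL2, DUSP6 and NR5A2 all lie beyond the dashed 2-fold lines, whereas EPAS1, F2R and ATP8B1 each have a probe set near 0.

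Some of the genes that stood apart are neighbours on the chromosome. Among the 101 genes with a probe set at least 2-fold apart, 11 pairs had no more than 2 measured genes between them in the gene order of GRCh38.p14, and 10 of these pairs lay on the same side of MP2-mock. They form 10 groups of 21 genes. RASAL2 and RALGPS2 differed by 1.34 and 1.64, ATP8B1 and NEDD4L by 1.92 and 1.62, IQGAP2 and F2R by 1.61 and 1.68, IFI16 and AIM2 by 1.07 and 2.11, and NAMPT, an enzyme of NAD synthesis, and CCDC71L by 1.48 and 1.16. Lower pairs were RNF182 and CD83, at -1.57 and -1.09, AKR1C1 and AKR1C2, and the chemokines CXCL5, CXCL3 and CXCL2, at -1.16, -1.23 and -1.58. MYO10 and CDH10 read higher by 1.12 and 1.39 with CDH12, between them, at -0.62. NRIP1 and CXADR stood on opposite sides, at -1.31 and 1.05.

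The 63 measured genes within 3 measured genes of a group or inside it are below 2-fold by the way the groups were formed, since a gene past 2-fold there would have been counted as a member. Of them 3 were at least 1.5-fold apart and 36 lay within 1.1-fold, each taken at its most different probe set. CXCL1, at -0.71, was the one furthest from 0. AKR1C1 and AKR1C2 share sequence, and IQGAP2 and ATP8B1 lay at the floor in MP2-mock. How often such neighbours occur among genes taken at random was not tested.

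**Figure D5:**
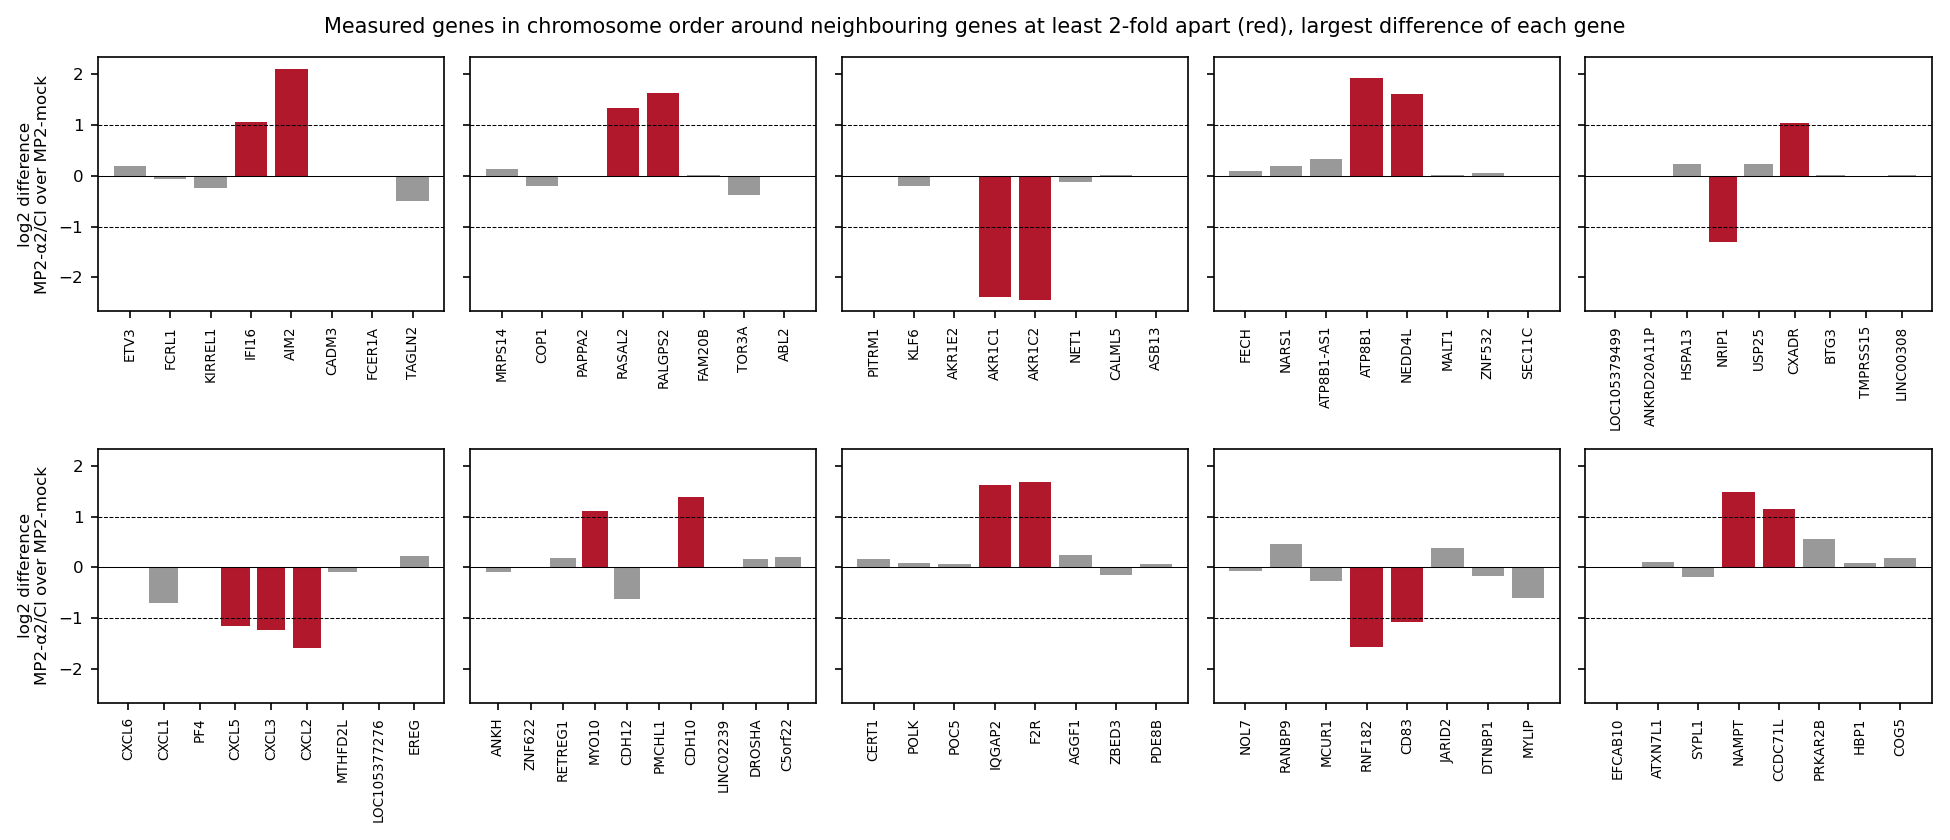
Log2 differences of MP2-α2/CI over MP2-mock for measured genes in chromosome order, in 10 panels, each with a group of neighbouring genes at least 2-fold apart (red) and the measured genes around it (grey), every gene at its most different probe set. Dashed lines mark 2-fold, and grey bars stay inside them because a gene past 2-fold would be a member of the group.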

How the data were processed

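Total RNA of MIAPaCa2 populations was hybridized to Affymetrix arrays, 1 array per population. Values deposited by the authors, 1 for each probe set, were already normalized and, running from 2.24 to 15.84, were taken as log2, the base being not given in the sources used here. GCRMA and MAS5 appear in the submitters' processing notes, without role. The mock, α2/TC and α2/CI arrays share a minimum and were taken as normalized together. Symbols came from the platform annotation, 41037 being brought up to date by gene ID, and 1801 probe sets with several symbols and 11721 with none were not named. Log2 differences were computed in Python 3.11.15 with pandas 2.3.3, after values were raised to the floor, and tested on simulated data. In a list each gene stood at its brightest probe set, by the mean of these 3 arrays. Genes named are the 15 furthest above and the 15 furthest below MP2-mock, those with 2 or more probe sets 2-fold apart in 1 direction, 2-fold members of 38 lists, integrins and kallikreins of the study, and genes on opposite sides of MP2-mock on the α2 arrays. Other genes are said to be named after their values were seen, or are named as members of lists, as neighbours or for a κB match. The members and lists were chosen with earlier results of these data known. The number of arrays, 1 a side, limits the precision. MP2-α2Δ and MP2-α9α2 arrays were not used here.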

Additional observations from a re-analysis of the deposited data

Results flagged for a closer look

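JAG1 and KANK4 lay on opposite sides of MP2-mock on the α2 arrays, each by at least 2-fold. For JAG1 the differences in MP2-α2/CI cells were -2.13 and -2.14 at 2 probe sets, against 1.38 and 1.31 in MP2-α2/TC cells. For KANK4 they were -1.31 and 1.15. Each rests on 1 array per population and the difference was not tested. Both JAG1 probe sets can read several transcripts, and the remaining one above the floor, at 2.30 in MP2-mock cells, could show no decrease and differed by 1.48 in MP2-α2/TC cells.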

How the results depend on the processing

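No paired analysis was possible because each population had 1 array and the labels give no replicate numbers. For the same reason no replicate could be left out, and signal over the floor is the only measure of depth. Without probe sets that can read several transcripts, 84 probe sets were at least 2-fold apart, 43 higher and 41 lower, and 10 genes had 2 or more of them. At 1.5-fold these counts were 525, 301, 224 and 66, and at 3-fold 51 probe sets, 21 higher and 30 lower. Centring, quantile normalization, other floors or none, and another probe set per gene left the counts within 1.5 times. ATP8B1 turned to -0.0918 at its brightest probe set, and the cause was not tested. With a floor at a log2 value of 4, 47 of the 53 named genes that stood 2-fold apart still did, and with the brightest probe set 49, the others being ATP8B1, CXCL5 (-0.64), KLF4 (-0.55) and PLAU (-0.64). Centring and quantile normalization each left 52. List medians moved by over 0.1 in 4 lists without probe sets that can read several transcripts. With a floor at 4 the median of the kallikreins was 1.43, but only KLK6 and KLK3 read above 4 in MP2-mock or MP2-α2/CI cells. KLK3 differed by 0.07, so this median rests on KLK6. The median of cytokines and NF-κB targets was -0.13 with no floor and -0.06 without probe sets that can read several transcripts.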
